A study of Homo sapiens with 4 samples.

Results

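The genes described here encode interleukins, colony-stimulating factors, LIF, the ligands of the TNF superfamily and the receptors of these cytokines. They were found by name among the protein-coding genes of the table (symbols beginning with IL and a digit, CSF and a digit, TNFSF or TNFRSF, and LIF and LIFR), without the death receptor genes TNFRSF10A and TNFRSF10B. The rule used no measured value, and it gave 68 of 13456 protein-coding genes. Of these, 25 encode ligands, 41 encode receptor chains, 1 encodes a soluble binding protein (IL18BP) and 1 encodes an enzyme that carries an interleukin name (IL4I1). All libraries were made from clusters of A549 cells, an established line from a human lung adenocarcinoma. In the shMock group (genotype given as wild type) the cells carried a control construct, and in the shDUSP23 group they carried a short hairpin RNA against DUSP23, a small dual-specificity phosphatase gene. Each group had 2 libraries, numbered 1 and 2. The sources used here do not give how many hairpins or clones were used, or what SUS stands for in the titles. They do not say either whether the 2 libraries of a group were separate cultures, so the p-values measure the spread between these libraries only.

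Cytokines of these families are mostly secreted or membrane-bound signals between cells. Many interleukins and some colony-stimulating factors bind receptors built from a private chain, which gives specificity, and a shared chain. The shared chain, such as gp130 (IL6ST) or the common gamma chain (IL2RG), passes the signal to JAK kinases and STAT factors. IL-1 family and TNF family receptors instead recruit MYD88 or TRAF adaptors and lead to NF-kB and MAP kinase signalling, and several members are decoys that bind the ligand and send no signal. Epithelial tumour cells are known to make cytokines such as IL-6, IL-11, LIF and the colony-stimulating factors, while many of the receptor chains are best known from leukocytes.

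DUSP23 was measured at 29.96 and 35.9 FPKM (fragments per kilobase of transcript, scaled to the fragments of the library and summed over the listed transcripts of a gene) in shMock and at 1.71 and 2.71 FPKM in shDUSP23, so the targeted gene went with the labels. The steps between low values gave totals of about 21300000 and 25300000 fragments for shMock and 27000000 and 42300000 for shDUSP23. Of 10 epithelial and A549 marker genes all were found, 8 fell and 0 rose. Their summed level was 7874 and 9175 FPKM in shMock and 3173 and 3382 FPKM in shDUSP23. Most of that fall came from ALDH1A1 (mean 2839 FPKM in shMock to 645 FPKM in shDUSP23), AKR1B10 (1507 to 302 FPKM) and NQO1 (1303 to 344 FPKM). CDH1, EPCAM and KRT18 also fell, whereas KRT8 (1148 to 958 FPKM) and KRT19 (6.70 to 7.34 FPKM) did not pass. Of 14 leukocyte markers, 4 were among the genes of the table. CD68 and ITGAM rose, CD14 fell and CORO1A lay below the filter. PTPRC, which defines leukocytes, was not among these 4 genes. Together the 4 genes summed to 31.6 and 34.2 FPKM for the shMock libraries, and to 103.8 and 137.8 FPKM for the shDUSP23 libraries. Most of each sum was CD68, at 24.4 and 23.5 FPKM in shMock and 94.9 and 130.9 FPKM in shDUSP23. The mean of ITGAM went from 2.08 FPKM in shMock to 6.29 FPKM in shDUSP23, and that of CD14 from 6.34 to 0.989 FPKM. Of 5 fibroblast markers 2 were found: COL1A1 did not pass and PDGFRB lay below the filter. Of 5 endothelial markers 0 were found. In bulk libraries fewer cells of a type and less RNA per cell cannot be told apart, and what other cells might add to the results below was not tested.

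More cytokine and receptor genes were higher than lower in the shDUSP23 clusters. The largest rise among the ligands was that of CSF1, the macrophage colony-stimulating factor, and the receptor chains with the largest rises were TNFRSF1B and IL10RA. IL10RA was at 0.296 and 0 FPKM in shMock, so it reached the level needed for the test only through the shDUSP23 group. The largest fall was that of IL1R2, the decoy receptor of IL-1. A gene was tested when its mean over the 4 libraries was at least 1 FPKM, on log2(FPKM + 0.5) with limma across 13691 genes, and it was called when the Benjamini-Hochberg adjusted p was under 0.05. All log2 fold changes below are shDUSP23 minus shMock on this scale, which understates the change of low genes, and levels are given as mean ± SD with n = 2 libraries per group.

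Of the 68 members, 54 were tested and 14 lay below the filter. Among the 54, 24 rose (44.4%), 6 fell (11.1%) and 24 did not pass. Of all tested genes 45.3% were called, 23.1% as higher and 22.2% as lower. Rises of at least 2-fold were met by 17 members and falls of that size by 4, where 9.36% and 8.91% of all tested genes met them. Of the 19 ligands tested 9 rose and 2 fell, and of the 33 receptor chains 14 rose and 4 fell. The median log2 fold change was 0.67 for the ligands and 0.40 for the receptor chains, beside 0.03 for all tested genes. Some members passed the filter through 1 group only (IL27, IL10RA and IL17RB among the called ones), so these counts describe the members that passed and are not evidence about the families. Without a filter all 68 could be tested, and 25 rose and 6 fell, beside 19.4% and 18.1% of all genes tested in that run.

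The scale of the libraries mattered for these counts. When the FPKM of all libraries were brought to equal sums, the median of all tested genes was 0.34, and 75.7% of all called genes were higher, against 51.0% as deposited. Members called higher then numbered 32 and members called lower 4, of 55 tested, beside 38.4% and 12.3% of all genes. The ligand and receptor medians became 1.03 and 0.70. The share of higher genes among called members was 80.0% as deposited and 88.9% with equal sums. The plot of fold changes shows the zero line and the median that all genes have with equal sums.

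**Figure D1:**
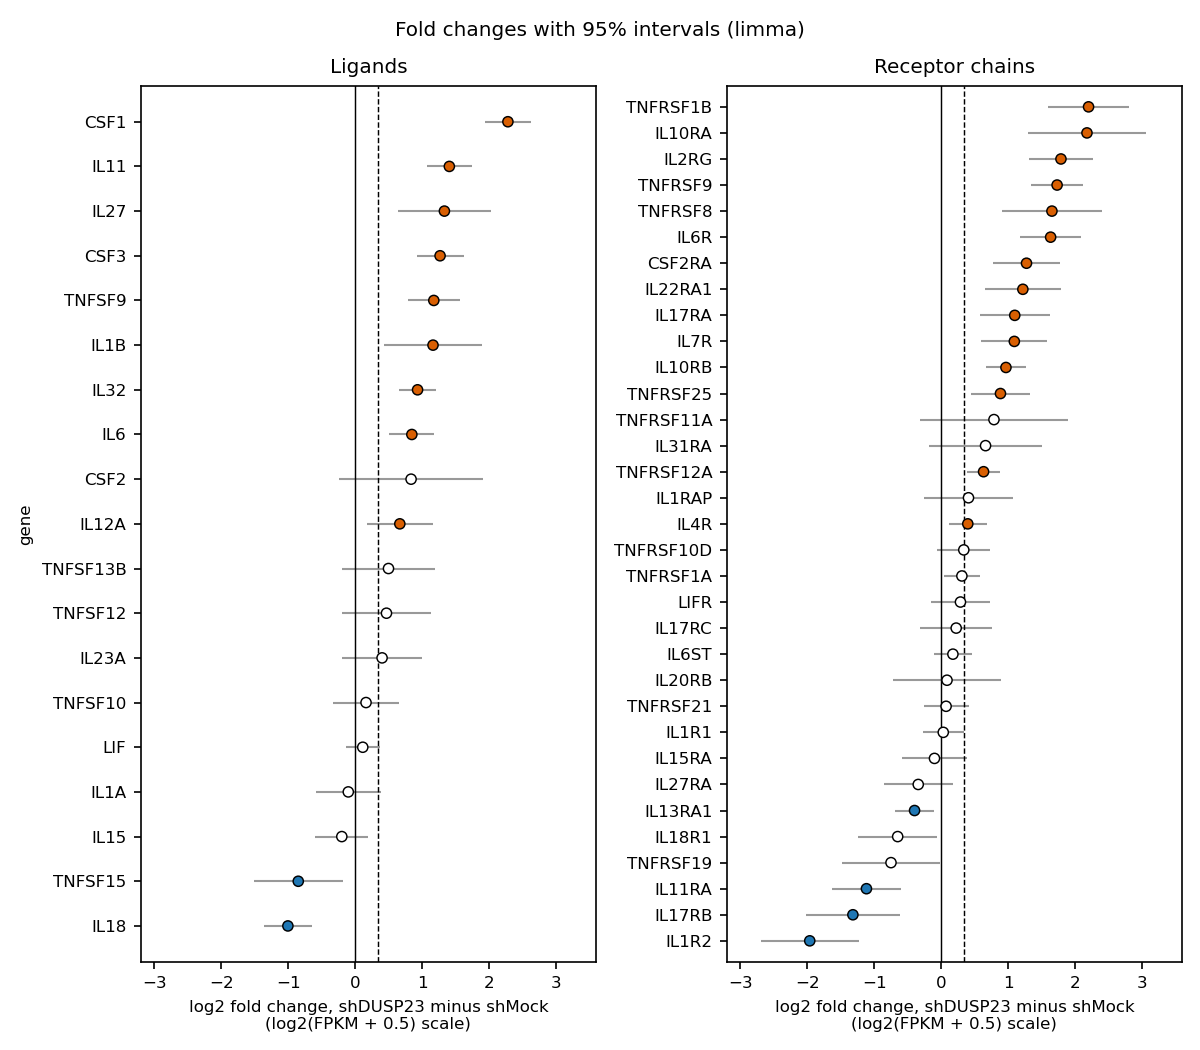
Log2 fold change of each tested ligand gene (left, 19 genes) and receptor gene (right, 33 genes), shDUSP23 minus shMock, with 95% intervals from limma. Orange points were called higher, blue points lower and white points did not pass; the solid line is at 0 and the dashed line at 0.34, the median of all genes with equal library sums. CSF1 (2.28) and TNFRSF1B (2.20) lie farthest to the right and IL1R2 (-1.96) farthest to the left.

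Colony-stimulating factors support the growth and survival of myeloid cells. CSF1 (ENSG00000184371, GRCh38 chromosome 1, 109910849 to 109930992, plus strand) was at 17.8 and 15.1 FPKM in shMock and at 73.6 and 91.1 FPKM in shDUSP23. Both shDUSP23 libraries lay above both shMock libraries, and the mean went from 16.5 ± 1.92 to 82.3 ± 12.4 FPKM (log2 fold change 2.28, SE 0.15; limma, Benjamini-Hochberg adjusted p = 3.84e-05). CSF3, the granulocyte colony-stimulating factor (chromosome 17, 40015361 to 40017813), was at 16.3 and 15.9 FPKM in shMock and at 35.0 and 44.9 FPKM in shDUSP23. The groups did not overlap, and the log2 fold change of CSF3 was 1.27 (SE 0.15; limma adjusted p = 0.000409). CSF2, the granulocyte-macrophage factor, was low and uneven, at 0.418 and 1.86 FPKM in shMock and 1.60 and 2.79 FPKM in shDUSP23. Its groups overlapped and it did not pass (log2 fold change 0.84, 95% interval -0.24 to 1.91).

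The cytokines that signal through gp130 differed among themselves: IL11 and IL6 rose, and LIF was almost level. IL11 (chromosome 19, 55364382 to 55370463), a cytokine of epithelial and stromal cells, was at 33.9 and 26.5 FPKM in shMock and at 76.4 and 84.7 FPKM in shDUSP23. It did not overlap between the groups and its mean was 2.67 times higher (log2 fold change 1.41, SE 0.15; limma adjusted p = 0.000213). IL6, the inflammatory cytokine of acute-phase responses (chromosome 7, 22727147 to 22732002), was at 40.2 and 32.6 FPKM in shMock and at 60.6 and 71.0 FPKM in shDUSP23. The mean of IL6 was 1.81 times higher, again without overlap (log2 fold change 0.85, SE 0.15; limma adjusted p = 0.00221). LIF, the leukemia inhibitory factor and the ligand gene with the highest level in shMock, was at 61.4 and 60.5 FPKM there and at 65.3 and 66.9 FPKM in shDUSP23. Its log2 fold change was 0.12 with a 95% interval from -0.14 to 0.37, and it did not pass as deposited, whereas with equal library sums it did (0.45, limma adjusted p = 0.0138).

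Among the IL-1 family ligands 1 rose, 1 fell and 1 did not pass. IL18, which is made as an inactive precursor by many epithelia (chromosome 11, 112143253 to 112164094), was at 52.9 and 57.1 FPKM in shMock and at 31.4 and 23.5 FPKM in shDUSP23. The groups did not overlap, shDUSP23 was the lower one, and the log2 fold change was -1.003 (SE 0.16; limma adjusted p = 0.00139). IL1B, the inducible form of IL-1, went from 1.62 and 0.946 FPKM in shMock to 2.75 and 4.24 FPKM in shDUSP23. These values corresponded to about 56.3, 39.0, 121 and 293 fragments, and the rise (log2 fold change 1.16, SE 0.32; limma adjusted p = 0.0188) was lost without shMock replicate 2 (adjusted p = 0.156) and without shDUSP23 replicate 2 (0.0564). IL1A, the form that also acts from inside the cell, was at 4.50 and 5.56 FPKM against 4.55 and 4.71 FPKM, and the groups overlapped. IL18BP, the soluble protein that traps IL-18, was at 3.58 FPKM in both shMock libraries and at 3.75 and 3.77 FPKM in shDUSP23, a log2 fold change of 0.06 with an interval from -0.44 to 0.56.

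The IL-12 family chains are secreted as pairs, and the subunit genes here were low. IL27 (the p28 subunit) was at 1.17 and 0.759 FPKM in shMock and at 3.65 and 2.72 FPKM in shDUSP23, or about 26.02, 20.03, 103 and 120.2 fragments. Its groups did not overlap, and the rise (log2 fold change 1.33, SE 0.31; limma adjusted p = 0.00821) was lost without shMock replicate 2 (adjusted p = 0.0856). IL12A, the p35 subunit, was at 3.92 and 4.10 FPKM in shMock and at 5.78 and 7.67 FPKM in shDUSP23 (log2 fold change 0.67, SE 0.22; limma adjusted p = 0.0342). The call of IL12A ended without a filter (adjusted p = 0.0513), with quantile normalization (0.0605) and when any of 3 libraries was left out: shMock replicate 1 (0.154), shMock replicate 2 (0.141) or shDUSP23 replicate 2 (0.129). IL23A, the p19 subunit of IL-23, was at 8.48 and 5.69 FPKM in shMock and 11.7 and 7.49 FPKM in shDUSP23, and the groups overlapped.

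IL32, an intracellular and secreted inflammatory protein gene with no relative in the other families, was at 32.0 and 33.7 FPKM in shMock and at 61.5 and 65.0 FPKM in shDUSP23. The replicates of each group lay close together, and the log2 fold change was 0.93 (SE 0.12; limma adjusted p = 0.000518). IL15, which supports natural killer and memory T cells, was at 24.8 and 27.1 FPKM against 26.6 and 19.1 FPKM, and its groups overlapped. IL4I1, an amino acid oxidase gene named for its induction by IL-4, also rose. It was at 2.30 and 2.58 FPKM in shMock and at 10.96 and 15.6 FPKM in shDUSP23 (log2 fold change 2.21, SE 0.23; limma adjusted p = 0.000196). Exons of IL4I1 overlap those of NUP62 on the same strand and of ATF5 on the other, and ATF5 also moved up (log2 fold change 1.31), so with the strandedness not given reads of these genes may not be separable.

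Of the TNF superfamily ligands 5 passed the filter, and 1 rose and 1 fell. TNFSF9 (chromosome 19, 6531026 to 6535924), the 4-1BB ligand that costimulates T cells, was at 9.72 and 7.61 FPKM in shMock and at 21.1 and 19.1 FPKM in shDUSP23. The groups were well apart (log2 fold change 1.18, SE 0.17; limma adjusted p = 0.00099). TNFSF15, the endothelial and mucosal ligand TL1A, was at 2.26 and 2.35 FPKM in shMock and at 0.957 and 1.17 FPKM in shDUSP23 (log2 fold change -0.85, SE 0.29; limma adjusted p = 0.0427). This call was close to the threshold and ended under 7 of its 15 alternatives, among them equal library sums (adjusted p = 0.132) and the replicate block (0.0522). TNFSF10, the death ligand TRAIL, was at 12.8 and 13.1 FPKM in shMock and 11.6 and 18.3 FPKM in shDUSP23, with 1 shDUSP23 library below and 1 above both controls. TNFSF12, the ligand TWEAK, was at 4.73 and 5.59 FPKM against 5.20 and 10.2 FPKM, so the difference came from shDUSP23 replicate 2. TNFSF13B, the B cell factor BAFF, was at 1.22 and 1.999 FPKM against 2.16 and 2.74 FPKM and did not pass (log2 fold change 0.50, interval -0.20 to 1.20).

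**Figure D2:**
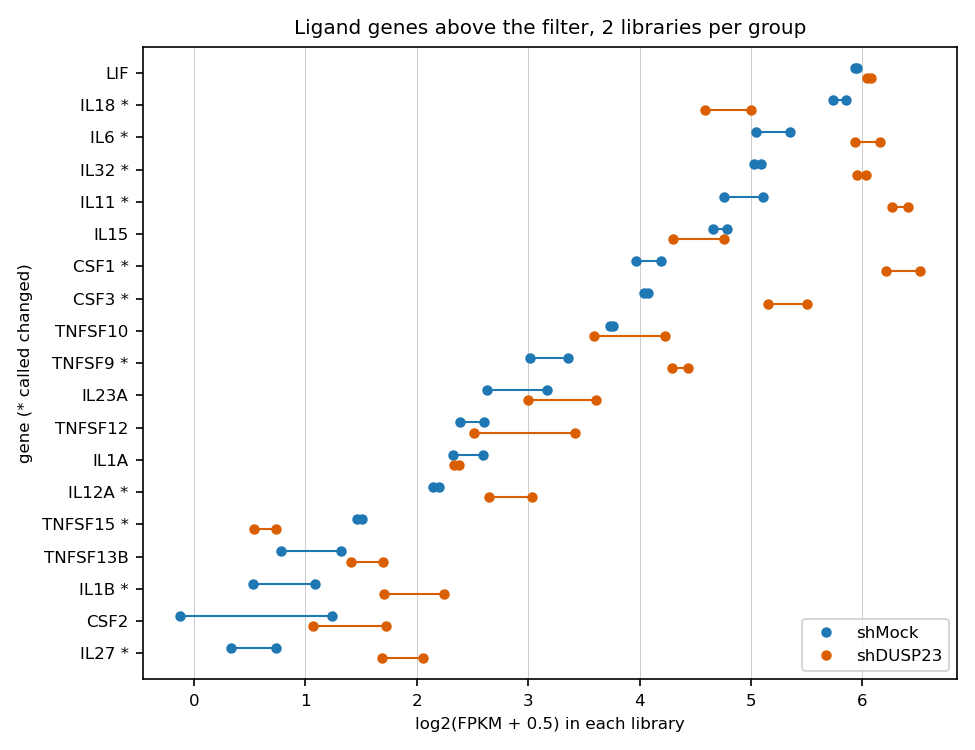
Level of each tested ligand gene in every library, as log2(FPKM + 0.5), ordered by the mean in shMock. Points are libraries, the line joins the 2 libraries of a group, blue is shMock, orange is shDUSP23 and a star marks a called gene. LIF lies at the top with both groups close together, whereas for CSF1 the orange points (73.6 and 91.1 FPKM) lie far to the right of the blue ones (17.8 and 15.1 FPKM).

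Of the 3 most abundant receptor chains 1 rose and the others did not pass. IL6ST, which encodes gp130, was at 105 and 106 FPKM in shMock and at 131 and 109 FPKM in shDUSP23. TNFRSF1A, the main TNF receptor of most cells, was at 96.8 and 98.6 FPKM in shMock and 113 and 130.4 FPKM in shDUSP23. It missed the threshold (log2 fold change 0.31, SE 0.12; limma adjusted p = 0.0615) and passed it with equal library sums (0.65, adjusted p = 0.00169). TNFRSF12A, the TWEAK receptor Fn14, was at 99.8 and 100.1 FPKM in shMock and 154 and 157 FPKM in shDUSP23, and it was called (log2 fold change 0.64, SE 0.11; limma adjusted p = 0.00198). In shMock these 3 genes lay within a few FPKM of each other, and in shDUSP23 TNFRSF12A was above both of the others in every library.

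IL4R and IL13RA1, the chains of the type II IL-4 receptor that binds IL-4 and IL-13, followed in level and moved in opposite directions by small amounts. IL4R was at 32.2 and 32.5 FPKM in shMock and 40.7 and 45.1 FPKM in shDUSP23 (log2 fold change 0.40; limma adjusted p = 0.0298). IL13RA1 was at 36.4 and 34.7 FPKM in shMock and 25.8 and 28.1 FPKM in shDUSP23 (log2 fold change -0.40; limma adjusted p = 0.0336). Neither call was firm. Corrected for transcript GC content and length, IL4R was at 0.05 (adjusted p = 0.714), and it also lost its call without a trend (0.0798) and on leaving out shMock replicate 1 (0.118), shMock replicate 2 (0.118) or shDUSP23 replicate 2 (0.114). With equal library sums IL13RA1 was at -0.06 (adjusted p = 0.73), and it also lost its call without a trend, with the GC correction and on leaving out either shMock library or shDUSP23 replicate 1 (adjusted p from 0.0786 to 0.159).

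The private chains of the IL-6 family moved apart while gp130 and LIFR did not pass. IL6R (chromosome 1, 154405223 to 154469450), which binds IL-6, was at 2.82 and 2.66 FPKM in shMock and at 8.95 and 10.2 FPKM in shDUSP23. It was 3.50 times higher without overlap (log2 fold change 1.64, SE 0.20; limma adjusted p = 0.00043). IL11RA (chromosome 9, 34650702 to 34661902), which binds IL-11, was at 5.36 and 5.97 FPKM in shMock and at 2.46 and 2.23 FPKM in shDUSP23. It was 2.41 times lower (log2 fold change -1.11, SE 0.22; limma adjusted p = 0.00435), and the call was lost without shMock replicate 2 (adjusted p = 0.0702). IL11RA shares exon positions with GALT on the same strand, whose log2 fold change was -0.13. LIFR, the private chain for LIF, was at 9.01 and 6.75 FPKM against 9.40 and 9.91 FPKM. IL31RA was at 0.964 and 0.778 FPKM against 2.35 and 1.15 FPKM.

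In the common gamma chain family 3 of 5 tested receptor chains rose and 1 fell, counting IL4R and IL13RA1 described above. IL2RG, the common gamma chain itself (chromosome X, 71107404 to 71111631), was at 2.88 and 2.46 FPKM in shMock and at 9.46 and 11.5 FPKM in shDUSP23 (log2 fold change 1.79, SE 0.21; limma adjusted p = 0.000349). IL7R, which pairs with it to bind IL-7, was at 3.13 and 3.95 FPKM in shMock and at 7.30 and 8.95 FPKM in shDUSP23 (log2 fold change 1.09, SE 0.22; limma adjusted p = 0.00412). Both genes were above the controls in each shDUSP23 library. IL15RA, which presents IL-15, was at 7.24 and 5.37 FPKM in shMock and 5.37 and 6.25 FPKM in shDUSP23, a log2 fold change of -0.10 with an interval from -0.59 to 0.39. CSF2RA, the alpha chain of the GM-CSF receptor, went from 3.66 and 3.47 FPKM to 7.88 and 11.1 FPKM (log2 fold change 1.28, SE 0.22; limma adjusted p = 0.00216). CSF2RA lies in the pseudoautosomal region that X and Y share.

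Of the 4 IL-10 family receptor chains, 3 rose. IL10RB, the shared chain for IL-10, IL-22 and interferon lambda (chromosome 21, 33266367 to 33297221), was at 18.0 and 16.4 FPKM in shMock and at 35.1 and 33.2 FPKM in shDUSP23. The log2 fold change of IL10RB was 0.97 (SE 0.13; limma adjusted p = 0.000757). IL10RA, the private chain for IL-10, was at 0.296 FPKM and listed at 0 in shMock and at 2.24 and 2.48 FPKM in shDUSP23, or about 23.3, 0, 223 and 388 fragments (log2 fold change 2.18, SE 0.38; limma adjusted p = 0.00237). It had to pass the filter through the shDUSP23 group. IL22RA1, the private chain for IL-22 on epithelia, was at 2.69 and 1.88 FPKM in shMock and at 5.40 and 6.51 FPKM in shDUSP23 (log2 fold change 1.22, SE 0.25; limma adjusted p = 0.00462). Its call was lost without shMock replicate 2 (adjusted p = 0.0558). IL20RB was level within its spread, at 1.316 and 1.03 FPKM against 1.73 and 0.908 FPKM.

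The IL-17 receptor chains went different ways. IL17RA, the shared signalling chain, was at 2.65 and 2.34 FPKM in shMock and at 5.30 and 6.59 FPKM in shDUSP23 (log2 fold change 1.10, SE 0.23; limma adjusted p = 0.00515; adjusted p = 0.0564 without shMock replicate 2). IL17RB, the chain that binds IL-25, was at 2.75 and 2.37 FPKM in shMock and at 0.866 and 0.599 FPKM in shDUSP23 (log2 fold change -1.317, SE 0.31; limma adjusted p = 0.00908). That fall was lost without shMock replicate 1 (adjusted p = 0.114) and without shMock replicate 2 (0.0841). IL17RC, the partner of IL17RA for IL-17A, was at 5.02 and 7.78 FPKM against 6.83 and 8.04 FPKM, and the groups overlapped.

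Of the 4 IL-1 family receptor genes tested 1 was called. IL1R2, IL1R1 and IL18R1 lie on chromosome 2 between 101998995 and 102452565, in a span that also holds IL1RL1 and IL18RAP, and IL1RAP lies on chromosome 3. IL1R2, which binds IL-1 and does not signal, was at 5.69 and 8.12 FPKM in shMock and at 0.923 and 1.97 FPKM in shDUSP23. These were about 170.1, 288, 35.0 and 117 fragments, and every shDUSP23 library was below every control. The mean of IL1R2 was 4.77 times lower (log2 fold change -1.96, SE 0.32; limma adjusted p = 0.0017). IL1R1, the signalling receptor, was at 26.1 and 25.9 FPKM in shMock and 24.9 and 28.6 FPKM in shDUSP23, a log2 fold change of 0.03 with an interval from -0.28 to 0.34. IL1RAP, the shared accessory chain, was at 2.44 and 3.37 FPKM against 5.11 and 3.09 FPKM. IL18R1 was at 3.61 and 4.06 FPKM against 2.68 and 1.90 FPKM, without overlap, and missed the threshold (log2 fold change -0.65; limma adjusted p = 0.0692).

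Of the 10 tested TNF receptor superfamily genes 5 rose and 0 fell as deposited, and TNFRSF19, at 2.004 and 1.60 FPKM against 1.03 and 0.724 FPKM, passed as lower in the alternatives without a trend and without shDUSP23 replicate 1. TNFRSF9, the costimulatory receptor 4-1BB (chromosome 1, 7915871 to 7943165), was at 13.5 and 9.73 FPKM in shMock and at 39.3 and 39.4 FPKM in shDUSP23 (log2 fold change 1.73, SE 0.17; limma adjusted p = 0.000174). TNFRSF1B, the inducible TNF receptor best known from leukocytes (chromosome 1, 12166991 to 12209220), was at 1.52 and 1.09 FPKM in shMock and at 6.51 and 9.18 FPKM in shDUSP23. It was 6.03 times higher (log2 fold change 2.20, SE 0.27; limma adjusted p = 0.000407), whereas the difference of TNFRSF1A described above was 1.25 times. TNFRSF8, the lymphocyte activation antigen CD30 (chromosome 1, 12063303 to 12144207), was at 2.86 and 1.60 FPKM in shMock and at 5.88 and 10.5 FPKM in shDUSP23 (log2 fold change 1.66, SE 0.33; limma adjusted p = 0.00413). TNFRSF25, the death-domain receptor of TL1A (chromosome 1, 6461151 to 6466107), was at 4.33 and 5.55 FPKM in shMock and at 9.60 and 9.39 FPKM in shDUSP23 (log2 fold change 0.89; limma adjusted p = 0.00673), and the call was lost without shMock replicate 1 (adjusted p = 0.0654). Of the other genes with a death domain or a decoy role, TNFRSF21 was at 22.2 and 18.4 FPKM against 21.6 and 21.0 FPKM. TNFRSF10D, a decoy for TRAIL, was at 11.3 and 14.9 FPKM against 16.1 and 17.1 FPKM and did not pass, and how reads were divided between it and its near copies is uncertain. TNFRSF11A, the receptor RANK, was at 1.34 and 0.438 FPKM against 2.9 and 1.02 FPKM, and its interval was wide (log2 fold change 0.79, 95% interval -0.31 to 1.89).

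**Figure D3:**
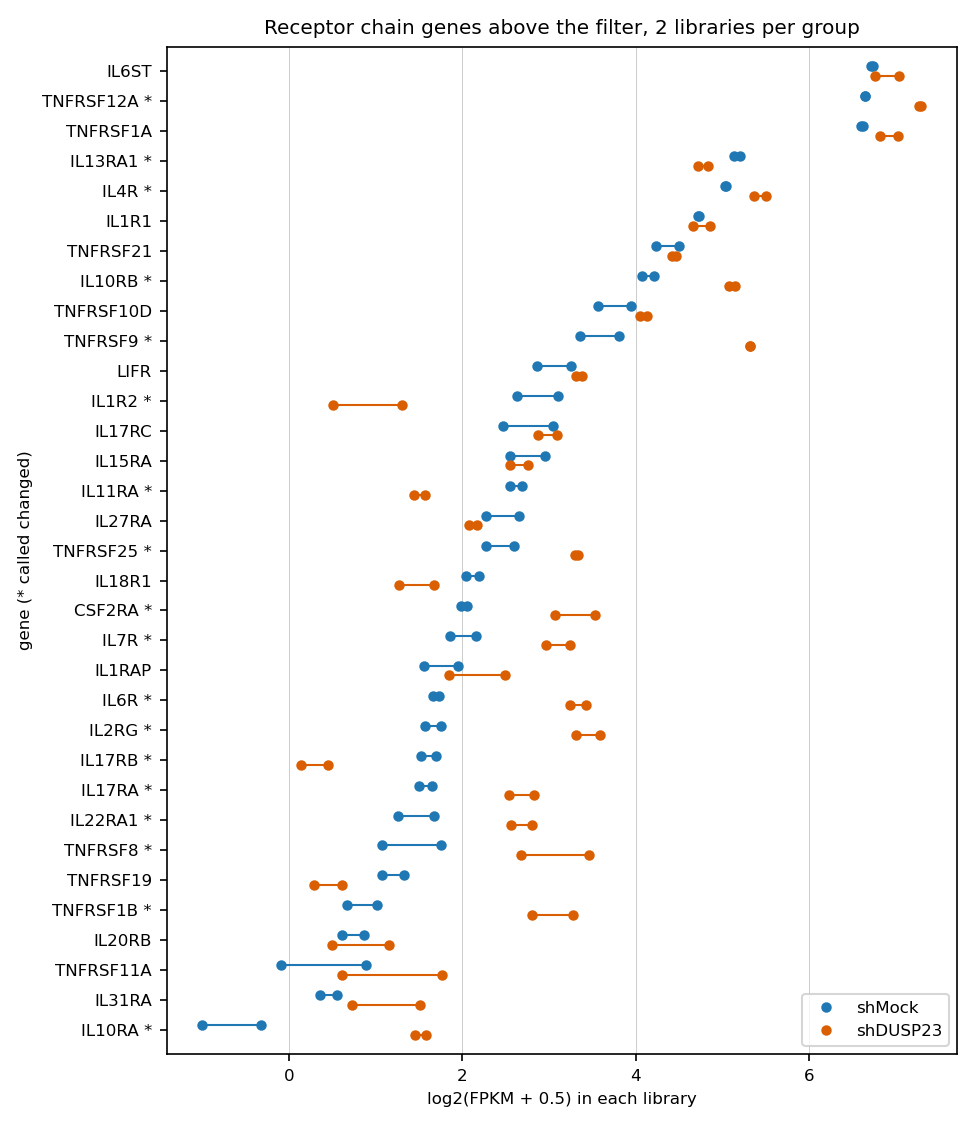
Level of each tested receptor gene in every library, as log2(FPKM + 0.5), ordered by the mean in shMock, with points, lines, colours and stars as in the plot of ligands. IL6ST, TNFRSF12A and TNFRSF1A lie at the top, and the widest gaps to the right are those of TNFRSF1B (1.52 and 1.09 against 6.51 and 9.18 FPKM) and IL10RA.

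The 4 called TNF receptor genes of the short arm of chromosome 1, TNFRSF25, TNFRSF9, TNFRSF8 and TNFRSF1B, lie between positions 6461151 and 12209220 and rose together. This set was noticed after the values were seen. Of the 51 other tested genes in the same span 11 rose (21.6%) and 9 fell, near the 23.1% of all tested genes that rose, and their median log2 fold change was 0.19.

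Ligands were set beside their receptor chains in 26 known pairs, of which 21 had both genes tested. In 5 pairs both genes were called. IL6 and IL6R rose together, as did TNFSF9 and TNFRSF9. IL11 rose while IL11RA fell, and IL1B rose while its decoy IL1R2 fell. As described above, the calls of IL11RA and IL1B were lost when certain single libraries were left out. TNFSF15 fell while TNFRSF25, the gene of its receptor, rose. The fall of TNFSF15 was close to the threshold (limma adjusted p = 0.0427), and the listed transcripts of TNFRSF25 were all noncoding. In the other 16 pairs at least 1 gene did not pass, such as LIF with LIFR, IL27 with IL27RA (5.78 and 4.32 against 3.70 and 3.997 FPKM) and IL18 with IL18R1. Several ligands share a chain, so the pairs are not independent, and no test was made over them.

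**Figure D4:**
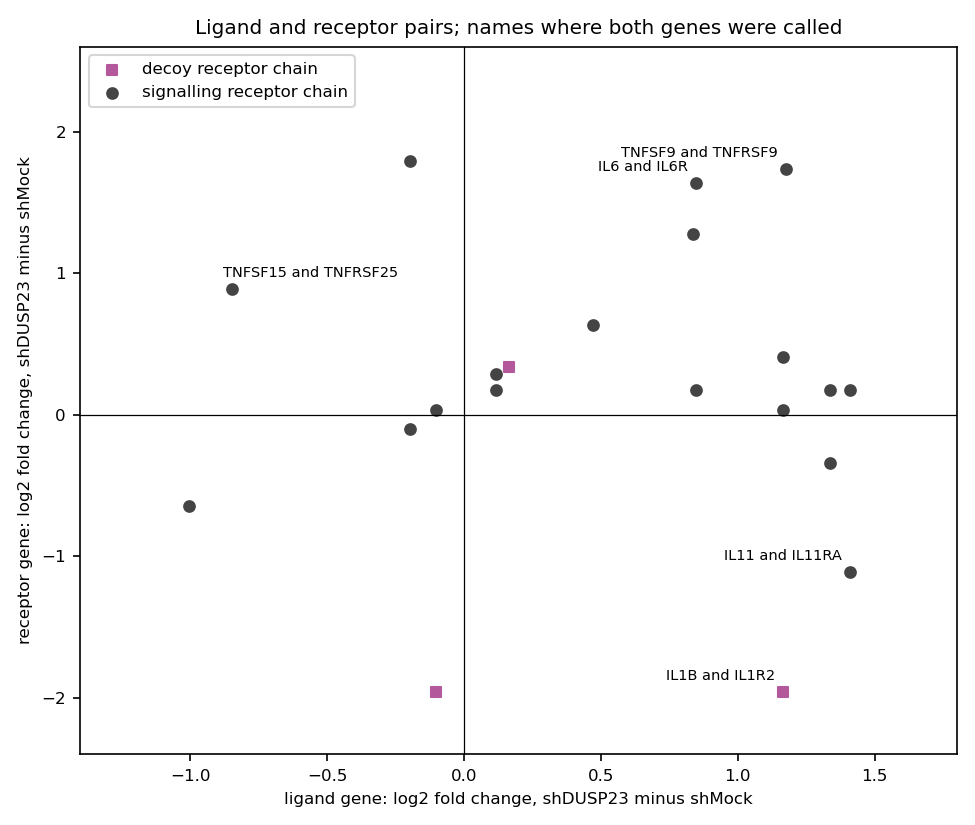
Log2 fold change of the ligand gene (horizontal) against that of the receptor gene (vertical) for 21 pairs, shDUSP23 minus shMock. Circles are signalling chains and squares decoys, and the 5 pairs with both genes called are named. IL6 with IL6R and TNFSF9 with TNFRSF9 lie at the upper right, and IL11 with IL11RA and IL1B with IL1R2 at the lower right.

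The 68 members were covered by 182 listed transcripts, of which 139 were annotated as protein-coding, 22 as retained introns, 14 as targets of nonsense-mediated decay and 7 as processed transcripts. Protein-coding transcripts held 82.4% and 82.2% of the members' summed FPKM in shMock and 84.6% and 85.7% in shDUSP23. In IL6ST 18.7% of the level lay in protein-coding transcripts and 57.9% in decay targets. Its transcript IL6ST-216, annotated as a decay target, was at 49.9 and 48.8 FPKM in shMock and 62.7 and 60.1 FPKM in shDUSP23. The protein-coding transcripts of IL6ST summed to 25.7 and 22.99 FPKM in shMock and 18.6 and 17.1 FPKM in shDUSP23. When protein-coding transcripts alone were summed for every gene, IL6ST was called lower (log2 fold change -0.43; limma adjusted p = 0.0388), while over all its transcripts the value was 0.18, and with equal library sums 0.51 (adjusted p = 0.00931). The direction for gp130 thus turned with the set of transcripts, and the scale changed its call and not its direction.

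All listed transcripts of TNFRSF25 were noncoding forms, 85.7% of its level in retained introns, so its rise was a rise of transcripts not annotated to make the receptor, and its exons overlap PLEKHG5 on the same strand (log2 fold change 1.01). CSF1-201, a protein-coding transcript, held 79.9% and 79.8% of the level of CSF1 in shMock and 84.8% and 86.9% in shDUSP23. TNFRSF9 was split between TNFRSF9-201, at 7.5005 and 6.14 against 27.3 and 24.5 FPKM, and TNFRSF9-205, at 6.04 and 3.59 against 12.0 and 14.9 FPKM. IL6R-202 held at least 91.7% of the level of IL6R in each library. IL4R-201 went to 0.007005 FPKM in shDUSP23 replicate 2 from 10.3 to 16.4 FPKM in the other libraries, while IL4R-202 was highest in that library at 25.0 FPKM, so the split between these transcripts was not stable. IL32 had 17 listed transcripts, of which IL32-211 and IL32-236 carried the same value in every library.

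Promoter windows were read for the 52 members that matched RefSeq by symbol (GRCh38.p14), as the 250 bases before the RefSeq start, and searched on both strands for motifs chosen after the values were seen. The kappa B consensus of NF-kB was found in 6 of 19 windows of members that rose (31.6%), in 0 of 5 of members that fell and in 2 of 19 of tested members that did not pass, beside 6.27% of the windows of tested genes and 5.05% of all windows. The AP-1 motif TGANTCA was found in 4 of 19, 1 of 5 and 2 of 19 windows, beside 3.79% of tested genes and 6.60% of all windows. The STAT motif TTCNNNGAA was found in 2 of 19, 0 of 5 and 3 of 19 windows, beside 5.55% and 6.78%. The ISRE core was found in 2, 0 and 1 of these windows (2.34% of tested genes), the CRE motif TGACGTCA in 1, 0 and 0 (2.93%) and the E-box CACGTG in 0, 1 and 1 (9.02%). Some members counted with a match had little of their summed FPKM in transcripts that start within 100 bases of the RefSeq start. The share was 0% for IL10RA and TNFSF15 (AP-1) and for IL15RA (STAT), and 27.6% for IL32 (kappa B and CRE). Most of the measured level of these genes was thus listed as starting elsewhere. TNFSF15 is the fallen member with the AP-1 match. These are matches of letters and not measured sites, and the marked kappa B and AP-1 matches of IL22RA1 do not overlap. The windows of 3 members that rose are shown because they hold a kappa B or AP-1 match, 5′ to 3′ on the gene's strand, in lower case with the matches in capitals and without bases that GENCODE places in an exon.
IL6, chr7:22726950-22727146, plus strand, kappa B: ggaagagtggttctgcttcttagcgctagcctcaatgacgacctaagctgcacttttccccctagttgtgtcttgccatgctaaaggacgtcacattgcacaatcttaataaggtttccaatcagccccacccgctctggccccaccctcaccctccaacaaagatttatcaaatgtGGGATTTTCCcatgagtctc
IL11, chr19:55370464-55370713, minus strand, AP-1: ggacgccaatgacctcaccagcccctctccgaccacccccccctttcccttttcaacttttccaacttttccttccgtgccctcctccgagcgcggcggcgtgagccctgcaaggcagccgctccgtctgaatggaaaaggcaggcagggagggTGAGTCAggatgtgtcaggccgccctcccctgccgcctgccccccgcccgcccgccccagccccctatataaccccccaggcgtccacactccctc
IL22RA1, chr1:24143141-24143390, minus strand, AP-1 and then kappa B: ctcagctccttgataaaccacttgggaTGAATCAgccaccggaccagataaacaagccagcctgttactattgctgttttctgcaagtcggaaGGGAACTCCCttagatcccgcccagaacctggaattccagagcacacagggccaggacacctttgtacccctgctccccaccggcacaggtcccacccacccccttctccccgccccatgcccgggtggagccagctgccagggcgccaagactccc

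The other genes of these pathways were taken from lists outside the name rule. Their counts stand beside 23.1% of all tested genes that rose and 22.2% that fell. With equal library sums these shares were 38.4% and 12.3%. Of the partner ligands 3 of 6 tested rose and 2 fell. CD70, a TNF family ligand of lymphocytes, was at 15.2 and 20.6 FPKM in shMock and 51.3 and 75.2 FPKM in shDUSP23 (log2 fold change 1.78). KITLG, the stem cell factor, was at 7.39 and 7.75 FPKM against 2.59 and 2.55 FPKM (log2 fold change -1.39). TNF itself, named after its value was seen, was at 3.47 and 3.54 FPKM in shMock and 9.05 and 9.75 FPKM in shDUSP23. Of the partner receptors 5 of 10 rose and 0 fell, led by CD40 (11.7 ± 2.14 to 30.8 ± 6.11 FPKM) and by the death receptor gene FAS (34.5 ± 0.96 to 85.5 ± 2.26 FPKM).

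Of the listed adaptors, kinases and regulators downstream of IL-1 and TNF receptors, 16 of 23 tested genes rose and 0 fell. Their median log2 fold change was 0.57. TRAF1, an adaptor of TNF receptors, was at 30.5 and 26.9 FPKM in shMock and 98.4 and 110.1 FPKM in shDUSP23 (log2 fold change 1.84). TOLLIP, a negative regulator of IL-1 receptor signalling, was at 14.6 and 14.7 FPKM against 27.3 and 35.6 FPKM (log2 fold change 1.06). In the JAK-STAT list 5 of 14 rose and 2 fell. STAT4, the factor downstream of IL-12, was at 4.79 and 4.91 FPKM in shMock and 0.608 and 0.869 FPKM in shDUSP23 (log2 fold change -2.12). SOCS1, an inhibitor of JAK kinases, was at 1.96 and 1.45 FPKM against 4.43 and 5.33 FPKM (log2 fold change 1.29). Of 7 tested genes for proteins, enzymes and others, that take part in releasing or activating cytokines and receptors 2 rose and 3 fell. RHBDF1 and RHBDF2, the partners of the sheddase ADAM17, rose by 1.14 and 0.91 on the log2 scale, and ADAM17, ADAM10 and CASP4, named after their values were seen, fell.

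The 14 members below the filter were 6 ligand genes (TNFSF13, TNFSF14, TNFSF4, IL34, IL7 and the readthrough gene TNFSF12-TNFSF13) and 8 receptor genes (IL3RA, IL17RD, TNFRSF10C, IL18RAP, IL1RL1, IL17REL, TNFRSF13C and IL21R). Their highest value in any library was 2.22 FPKM, for TNFSF13 in shDUSP23 replicate 2. Without a filter 2 of them passed as higher. TNFSF13, the B cell factor APRIL, was at 0.214 and 0.559 FPKM against 0.996 and 2.22 FPKM (log2 fold change 1.21; limma adjusted p = 0.0383), and it shares exons with the readthrough gene. TNFRSF10C, another decoy for TRAIL, was at 0.236 and 0.426 FPKM against 1.04 and 1.44 FPKM (log2 fold change 1.07; limma adjusted p = 0.0236). It shares exon positions with AC107959.4 on the same strand, at 2.42 and 1.53 FPKM against 4.26 and 2.86 FPKM (log2 fold change 0.72). How reads were divided between TNFRSF10C and AC107959.4 is uncertain. IL34, IL7 and TNFSF4 were listed at 0 in shDUSP23 replicate 2, the library with the most fragments, although shDUSP23 replicate 1 held about 42.0, 24.7 and 78.4 fragments of them.

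Over all 68 members the groups did not overlap in 46, with shDUSP23 higher in 37 and lower in 9, where 38.3% and 33.6% of all listed genes did so. Of the 30 called members, 19 kept their call under every alternative in which they were tested, and 0 changed direction. The ligand genes in that set were CSF1, CSF3, IL11, IL6, IL32, TNFSF9 and IL18. The receptor genes in it were TNFRSF1B, TNFRSF8, TNFRSF9, TNFRSF12A, IL10RA, IL10RB, IL2RG, IL6R, IL7R, CSF2RA and IL1R2, and IL4I1 was the last. Of these, IL10RA passed the filter only through the shDUSP23 group, and its log2 fold change ran from 1.56 to 3.63 over the alternatives.

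**Figure D5:**
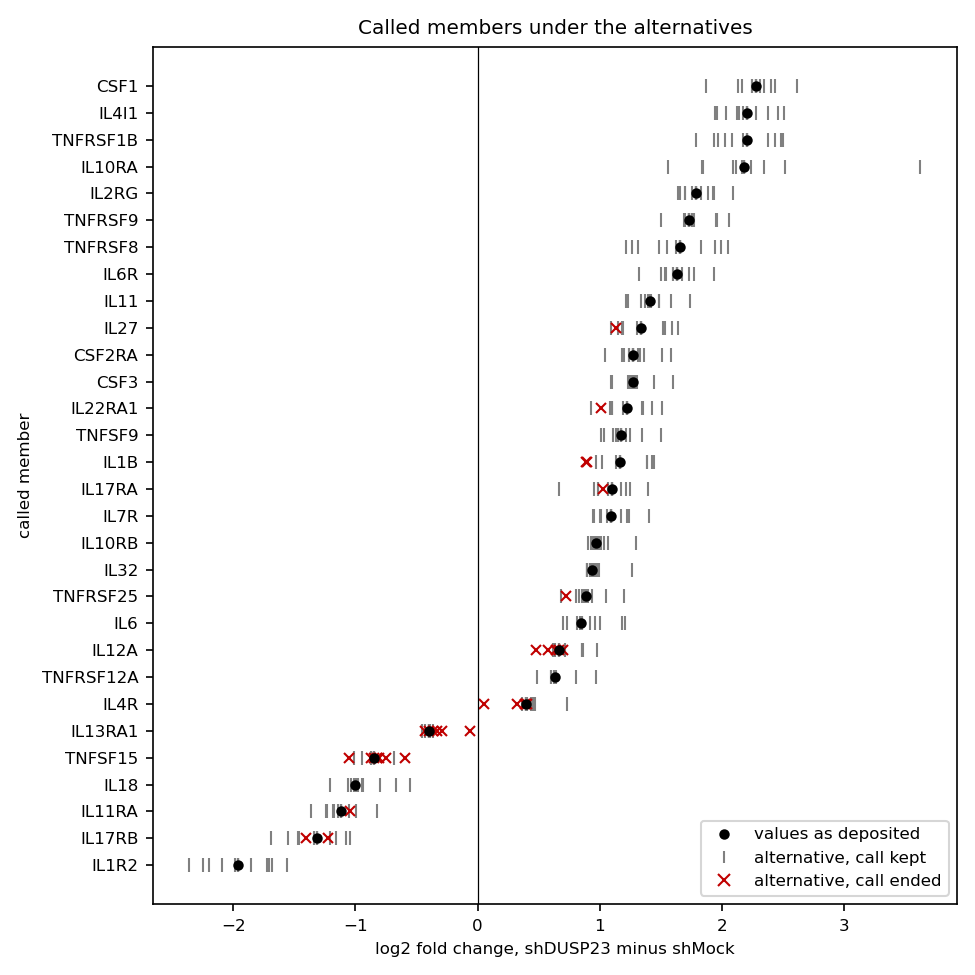
Log2 fold change of the 30 called members as deposited (black points) and under each alternative in which the gene was tested (grey ticks where the call held, red crosses where it ended). CSF1 and IL1R2 stay far from 0 throughout, 11 genes carry red crosses, and IL4R and IL13RA1 have a cross close to 0.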

How the data were processed

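RNA-seq libraries of A549 cell clusters, 2 shMock and 2 shDUSP23, were compared. The authors deposited FPKM values per Ensembl transcript. STAR 2.7.1a, DESeq2 1.32.0 and GRCh38 are named, per the submitters' processing notes, and the sources used here do not give the program that made the FPKM values, the annotation release or the strandedness. Transcripts were summed per gene, and 0 value columns were left unused. The test, for genes whose mean reached 1 FPKM, was that of limma 3.58.1 in R 4.3.3 (2-sided, with a trend in eBayes) on log2 values with a pseudocount of 0.5 FPKM, with Benjamini-Hochberg adjustment over all tested genes. FPKM hold no counts, so low values are imprecise: fragment numbers were estimated from the steps between low values, of which 82.9% to 85.3% came out whole within 0.1 fragment, and cover counting error only. The script was tested on simulated data in which far fewer genes changed than were called here. Of 145 calls there 13 were false. Changes of 0.5, 1 and 2 on the log2 scale were recovered in 20.9%, 79.1% and 98.5% of cases.

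The members and lists were chosen with earlier results of these data known. Values in every library were to be given for tested ligands, for other called members with a log2 fold change of at least 1 in size and for the 5 most abundant receptor chains. From each pathway list the 2 called genes with the largest change were named. Values of further members were added after they were seen. GENCODE release 29 gave transcript lengths, GC content and exon overlaps, and RefSeq gave promoters. Alternatives changed the pseudocount, filter, scaling, moderation, transcript set, replicate block and each library in turn. The GC and length correction was chosen after seeing the data.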

Additional observations from a re-analysis of the deposited data

How the results depend on the processing

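Both the scale and single libraries moved the counts. With equal library sums 32 members were called higher, against 24 as deposited. Leaving out 1 library at a time gave 3258 to 6391 called genes against 6202, the lowest without shMock replicate 2 and 3935 without shMock replicate 1. Members called higher ranged from 18 to 27 and members called lower from 2 to 6. For ligands the ranges were 6 to 11 higher and 1 to 2 lower, and for receptor chains 11 to 15 higher and 1 to 5 lower. The number of ligands called lower was 1 with a pseudocount of 0.1 FPKM, with a mean of at least 5 FPKM, with equal library sums, with the replicate block and with the GC and length correction. With a mean of at least 5 FPKM, where 33 members were tested, 2 members and 1 receptor chain were called lower. Of all genes tested with that filter 27.9% were called lower. Equal library sums moved the ligand median to 1.03 and the receptor median to 0.70. With protein-coding transcripts alone IL6ST was at -0.43 instead of 0.18. The cause of these shifts was not tested. Some of the alternatives also held fewer genes or fewer libraries. Same-numbered libraries were not shown to be pairs: their deviations from the group means correlated at 0.05. The replicate block gave 6707 called genes, with 25 members higher and 5 lower, beside 24.8% and 24.2% of all tested genes. It ended the call of TNFSF15 and gave one to TNFRSF1A (limma adjusted p = 0.0481). Of the 30 called members 11 lost their call under at least 1 alternative and 0 changed direction.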
